A study of Mus musculus with 4 samples.

Results

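Kruppel-like factors are transcription factors that bind GC-rich and CACCC-type DNA through zinc fingers at their carboxyl end, and they are known for opposing roles in the making of fat cells. Klf4, Klf5, Klf9 and Klf15 are known to favour the conversion of preadipocytes, whereas Klf2, Klf3 and Klf7 are known to hold it back, and Klf6 is known to repress the preadipocyte gene Dlk1. Klf4 is also tied to p53: in human colon cancer cells it is induced after DNA damage in a p53-dependent way and acts on the promoter of the p21 gene. The members described here are Klf2, Klf3, Klf4, Klf5, Klf6, Klf7, Klf9, Klf10, Klf13 and Klf15, chosen by gene symbol. All 10 were found among the 16709 gene symbols of the deposited table, and the values of all transcripts with the same symbol were added up.

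RNA sequencing was done on 3T3-L1 preadipocytes, a clonal mouse fibroblast-like line that can be turned into adipocytes but was kept here as growing preadipocytes. A total of 4 libraries fell into 2 groups of 2 biological replicates. The cells of one group received 25 µM Nutlin-3a dissolved in DMSO for 24 h, and those of the other the same amount of DMSO as vehicle. Nutlin-3a is a small molecule that keeps the ubiquitin ligase MDM2 from binding p53, and the comparison asks how p53 activation in this way affects the preadipocyte transcriptome.

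The authors' table gave 1 value per transcript and group, in FPKM (sequenced fragments per kilobase of a transcript, relative to all mapped fragments), and none per library. Every value below therefore stands without replicate error, and no difference could be tested. The depth of each library is unknown. Log2 ratios are those of Nutlin-3a over DMSO after adding 1 to the FPKM, which understates the ratio of weak genes. Folds are given without that addition. A gene was called higher or lower if its log2 ratio reached a limit of 2-fold, its mean FPKM was at least 1 and both of its values were above 0. Among 6 genes checked for p53 activity, the targets Cdkn1a, the p21 gene (386 against 35.2 FPKM), Ccng1 (200 against 22.3) and Ppm1d (17.9 against 4.14) were called higher in Nutlin-3a. Bax (658 against 370) and Trp53 (63.1 against 54.5) stayed within the limit. Over all 10331 genes compared, 6.62% were called higher and 6.14% lower. Mdm2, a p53 target and the gene of the protein that Nutlin-3a binds, had 773 FPKM in DMSO but was listed at 0 in Nutlin-3a, and it is given no fold. Of 9 preadipocyte markers, Cd34 was near 0 in both groups (0.0187 and 0.186 FPKM), and the other 8 were above 9 FPKM in both. Of these 8, Pdgfra, Ly6a, Col1a1, Col3a1 and Vim were called lower in Nutlin-3a, as were 6.14% of all genes compared. The median log2 ratio of the 8 was -1.50, against 0.07 over all genes compared. Dlk1 (623 against 513 FPKM) was the one of the 8 with a higher value. Of the mature adipocyte markers, Fabp4 (8.65 against 42.0 FPKM) and Lpl (24.1 against 54.5 FPKM) were compared and called lower. The other 5 analysed, Adipoq (0.840 against 0.0409 FPKM) and Retn (0.874 against 0.0988 FPKM) among them, were below 1 FPKM in both groups, and Plin1 and Lep were listed at 0 in DMSO.

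Of the 10 Kruppel-like factors, 9 could be compared and 8 of these 9 had a higher value in Nutlin-3a than in DMSO. Klf9 (0.658 FPKM) and Klf15 (0.0825 FPKM) were below 1 FPKM in DMSO and met the minimum mean only through a higher Nutlin-3a value. Their sign was thus fixed by the filter, and the 8 of 9 is not read as a result about the family. Klf15 was the member past the 2-fold limit, 8 members stayed within it, and none was past it in the lower direction. At its DMSO value, Klf15 could meet the minimum mean only with a Nutlin-3a value past the limit, so its call was fixed by the filter. Klf13 was the member with a lower value in Nutlin-3a. Klf7 was listed at 0 in DMSO and was left out of the comparison. Of all 10331 genes compared, 6.62% were called higher and 6.14% lower, and 1 of 9 members is near that background and is not read as a result about the family. By the sign of the ratio, 54.8% of all genes compared had a higher value in Nutlin-3a, and so did 57.5% of the 6015 genes whose mean FPKM lay in the range of the compared members, from 1.11 to 13.4. The median log2 ratio of the 9 members was 0.41, against 0.07 over all genes compared, whose quartiles were -0.33 and 0.44. The 10 members together had 65.9 FPKM with Nutlin-3a against 45.2 with DMSO, a 1.46-fold difference. More cells with a transcript and more of it per cell cannot be told apart in such bulk samples.

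**Figure D1:**
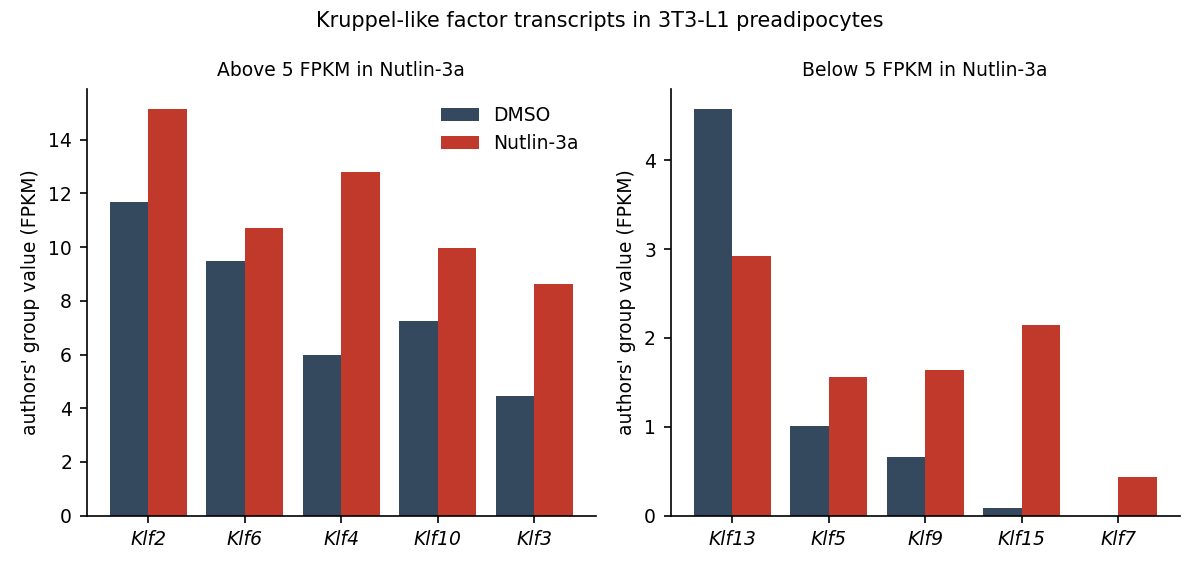
Authors' group values in FPKM for the 10 Kruppel-like factors, with a pair of bars per gene for DMSO and Nutlin-3a and a separate vertical axis for the weaker genes; there are no error bars, since the table holds 1 value per group. The Nutlin-3a bar is the taller one for every gene except Klf13, and Klf7 has no DMSO bar because it was listed at 0.

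Klf15, a factor known to raise the glucose transporter Slc2a4 and to respond to glucocorticoids, had the highest ratio of the family. It had 2.14 FPKM with Nutlin-3a but only 0.0825 FPKM with DMSO, a 26-fold difference in plain FPKM and a log2 ratio of 1.54. That ratio was above those of 97.8% of the genes compared. A gene with this DMSO value is compared only if its Nutlin-3a value already puts it past the limit. The call of Klf15 was therefore fixed by the filter, and its place among the genes compared was bound to be high. The fold rests on a DMSO value near 0, and the number of fragments behind it is unknown. A total of 1866 genes, Klf15 among them, had a DMSO value above 0 and below 0.1 FPKM, and 66.5% of them had a higher value in Nutlin-3a. Most of these stayed weak, with a median of 0.0651 FPKM in Nutlin-3a, and 23 of them (1.23%) reached the Klf15 value or more. Klf15 moved from place 9 to place 7 of the family and still made up 3.25% of the family sum in Nutlin-3a. Its gene model lies on chromosome 6 from 90462626 to 90475209 (mm10, plus strand), with up to 4 exons in GENCODE.

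Markers of other cell types were weak but had higher sums in Nutlin-3a, and Klf15 is known as a gene of muscle, liver and kidney. The 5 skeletal muscle markers summed to 3.36 FPKM in Nutlin-3a and 0.368 in DMSO, and Myod1, Myog, Ckm and Myh3 were listed at 0 in DMSO. Most of the Nutlin-3a sum came from Acta1 (1.74 against 0.368 FPKM, called higher at the very limit), Ckm (0.906 FPKM) and Myh3 (0.597 FPKM), while Myod1 and Myog, which define the lineage, had 0.043 and 0.0744 FPKM. The 3 endothelial markers analysed summed to 2.01 against 0.0704 FPKM, of which Pecam1 gave 1.57 and 0.026. Kdr was listed at 0 in DMSO and 0.0459 in Nutlin-3a. Macrophage markers summed to 7.58 against 3.46 FPKM over 4 genes, with Ptprc and Itgam listed at 0 in DMSO and Cd68 giving 6.52 and 2.91. Epithelial markers summed to 0.563 against 0.189 FPKM over 4 genes, with Epcam listed at 0 in DMSO. Weak genes leaned the same way across all symbols: 2346 were at 0 in DMSO alone and 466 in Nutlin-3a alone. Of the genes above 0 and below 0.1 FPKM in DMSO, 66.5% had a higher value in Nutlin-3a. The part of these cell types in the Kruppel-like factor values was not tested.

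Klf4, which acts early in adipogenesis by helping to switch on Cebpb, had 12.8 FPKM with Nutlin-3a against 5.98 FPKM with DMSO. It was 2.14-fold higher in plain FPKM, and its log2 ratio of 0.98 lay just under the limit. It passed the limit with a pseudocount of 0.5 (1.04) or 0.1 (1.08), with values scaled to the upper quartile (1.01) and when corrected for GC content (1.12). Klf4 stood at place 4 of the family in DMSO and at place 2 in Nutlin-3a, where it made up 19.4% of the family sum against 13.2% in DMSO. The gene lies on chromosome 4 from 55527137 to 55532475 (mm10, minus strand). Cebpb itself, which Klf4 is known to activate, had 380 FPKM in Nutlin-3a and 422 in DMSO.

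Klf5 and Klf9, both known to act on the Pparg promoter during adipogenesis, were weak in both groups. Klf5 had 1.56 FPKM in Nutlin-3a and 1.0 in DMSO, a log2 ratio of 0.35. Klf9 had 1.64 FPKM in Nutlin-3a and 0.658 in DMSO. Klf9 was 2.49-fold higher in plain FPKM, but its log2 ratio of 0.67 stayed within the limit because of the pseudocount. With a pseudocount of 0.1 it was past the limit, at 1.20. In plain FPKM, 3 of the 9 members compared (Klf4, Klf9 and Klf15) were at least 2-fold higher, against 10.1% of all genes compared. None was at least 2-fold lower, against 8.55%. At their DMSO values, Klf9 and Klf15 could meet the minimum mean only with a Nutlin-3a value at least 2-fold higher. Their place among these 3 was fixed by the filter, and the count is not read as a result about the family. Klf5 lies on chromosome 14 from 99298691 to 99313409 and Klf9 on chromosome 19 from 23141226 to 23166911 (mm10, plus strand).

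Among the members known to restrain adipogenesis, Klf3 had a higher ratio than Klf2, and the gap narrowed after a correction for GC content. Klf3, which represses with the corepressor Ctbp1 and is known to act on the Cebpa promoter, had 8.61 FPKM in Nutlin-3a and 4.46 in DMSO. Its fold of 1.93 and log2 ratio of 0.82 lay within the limit under each alternative with a 2-fold limit. Klf2, which represses the Pparg promoter and is best known from endothelium and T cells, had the highest level of the family in both groups. It had 15.1 FPKM in Nutlin-3a and 11.7 in DMSO, a 1.30-fold difference and a log2 ratio of 0.35. Corrected for GC content, the log2 ratios were 0.73 for Klf3 and 0.59 for Klf2. Klf7 had 0.438 FPKM in Nutlin-3a and was listed at 0 in DMSO, and no fold is given because a listed 0 may be an estimate that failed. A value of 0 in DMSO was common: 2346 symbols were at 0 in DMSO alone and 466 in Nutlin-3a alone. Of the 2346, 10.5% had a Nutlin-3a value at or above that of Klf7, and their median was 0.0642 FPKM. Klf3 lies on chromosome 5 from 64803523 to 64830129 (plus strand), Klf2 on chromosome 8 from 72319062 to 72321654 (plus strand) and Klf7 on chromosome 1 from 64035671 to 64121389 (minus strand), all in mm10.

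Klf6 and Klf10, both known as rapidly induced genes, stayed within the limit. Klf6 had 10.7 FPKM in Nutlin-3a and 9.49 in DMSO. Its log2 ratio of 0.16 was the closest to 0 of the members compared and fell to 0.02 after a correction for GC content. Dlk1, which Klf6 is known to repress, had the 623 and 513 FPKM given above. Klf10, first described as an early gene induced by TGF-beta, had 9.97 FPKM in Nutlin-3a and 7.23 in DMSO, a log2 ratio of 0.41. It was the member with 2 listed transcripts. The stronger one, with 9.80 against 7.19 FPKM, carried the class code j, which assemblers of the Cufflinks kind give to a transcript that shares a splice junction with a known gene but differs from its annotated forms. The annotated form had 0.172 FPKM in Nutlin-3a and 0.0468 in DMSO. The other 9 members each had 1 transcript, with the code for a full match. Klf6 lies on chromosome 13 from 5861489 to 5870393 (plus strand) and Klf10 on chromosome 15 from 38291464 to 38300711 (minus strand), both in mm10.

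Klf13, first described in human T cells as an activator of the chemokine gene CCL5, was the member with the lower value in Nutlin-3a. It had 2.92 FPKM in Nutlin-3a and 4.57 in DMSO, a 1.57-fold lower value and a log2 ratio of -0.51. It was within the 2-fold limit, and its ratio was below 0 under each alternative that kept it in the comparison, from -0.63 to -0.34. A minimum mean of 5 FPKM left it out. In DMSO it stood at place 5 of the family, ahead of Klf3, and in Nutlin-3a at place 6, behind Klf3. The gene lies on chromosome 7 from 63886351 to 63938915 (mm10, minus strand).

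**Figure D2:**
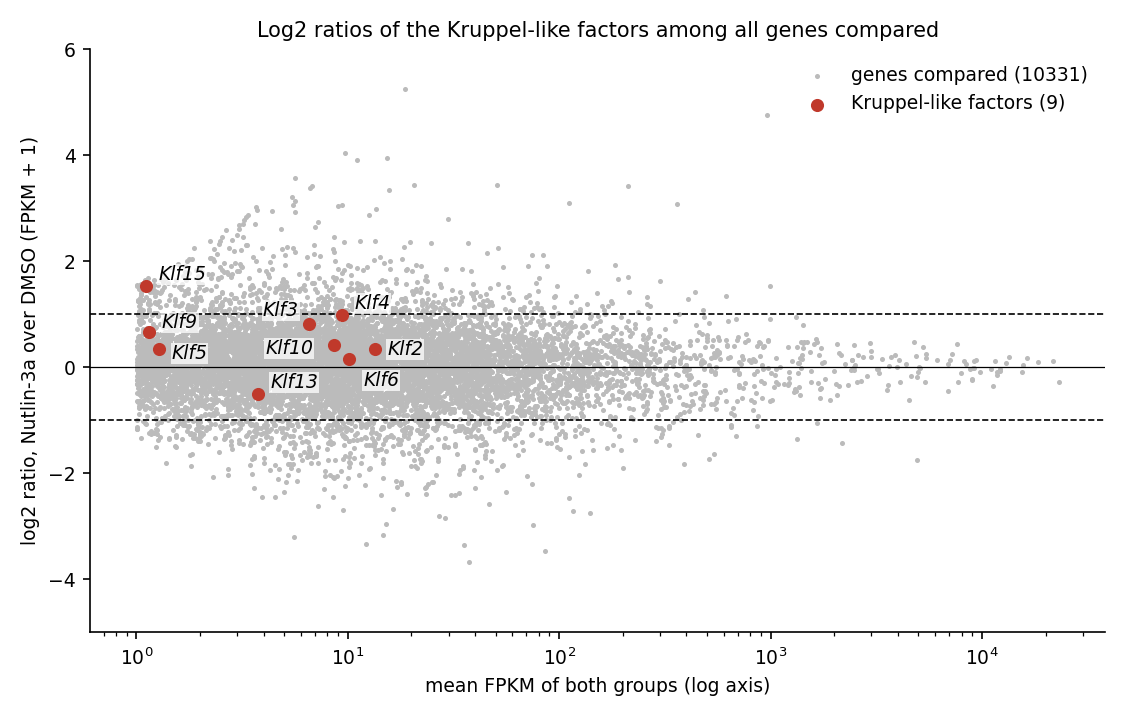
Mean FPKM of both groups on a log axis against the log2(FPKM + 1) ratio of Nutlin-3a to DMSO, with 1 grey point for each of the 10331 genes compared and red points for the 9 Kruppel-like factors among them; dashed lines mark the 2-fold limit. Klf15 lies above the upper line at a mean of 1.11 FPKM, Klf4 just under it, and Klf13 is the red point below 0.

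The order of levels in the family was much the same in both groups. In DMSO it ran Klf2, Klf6, Klf10, Klf4, Klf13, Klf3, Klf5, Klf9, Klf15 and Klf7. In Nutlin-3a it ran Klf2, Klf4, Klf6, Klf10, Klf3, Klf13, Klf15, Klf9, Klf5 and Klf7. Without values per library, it is not known which neighbours in these orders differ by more than the spread between replicates. Klf2, the first in both, ranked 3837 of 16709 symbols in Nutlin-3a and 4421 in DMSO, and Klf15 ranked 9021 and 12673. The members above 5 FPKM were 5 in Nutlin-3a and 4 in DMSO.

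Ratios moved with the GC content of the transcripts, and the members differ in it. Across the 9935 genes with a GC content, which are not independent replicates, Spearman's rho between GC content and log2 ratio was -0.22. With genes in 8 classes of equal size, the lowest GC class had a median log2 ratio of 0.24 and the highest GC class one of -0.17. Klf2 had the highest GC content of the members (61.6%) and Klf6 the lowest (42.4%). Klf4, Klf13 and Klf15 had 54.6%, 55.5% and 54.9%. After correction for these classes, Klf15 was at 1.70, Klf2 at 0.59 and Klf13 at -0.34, and 8 of 9 members still had a ratio above 0. Klf9 and Klf15, whose sign the filter fixed, were among these 8.

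The members have little sequence in common with each other at the length of a short read. Of the 50-base words in the longest GENCODE transcript of each member, none was found in a transcript of another Kruppel-like factor, on either strand. Klf2, Klf6, Klf9, Klf10 and Klf15 shared none with any gene. In its longest GENCODE transcript, Klf7 shared 40.8% with an annotated transcript on the opposite strand. The gene of that transcript does not overlap the span listed for Klf7, which is shorter than the GENCODE gene. Klf3 shared 6.92% with other gene models, among them one that overlaps it on the opposite strand. Whether strand was used in quantification is not given in the sources used here, so the value of Klf3 is uncertain to that extent. For the words that Klf7 shared, this would apply only to reads counted beyond the listed span. Other genes on the opposite strand overlap the listed spans of Klf7 and Klf13. None of the words of these members' longest transcripts was found in those genes. Klf4, Klf5 and Klf13 shared 0.268%, 0.121% and 0.173%.

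Promoter sequences are shown for the 3 members with the highest log2 ratios and for Klf13, the member with a ratio below 0, since Kruppel-like factors bind GC-box and CACCC-type elements themselves. Each runs from 250 bases before to 50 bases after the annotated start (RefSeq, GRCm38.p6, the assembly also called mm10), read 5′ to 3′ on the strand of the gene. Capitals mark each GC box (GGGCGG) and each CACCC box (CACCC), found on either strand. The windows are chr6:90462326-90462625 (plus strand) for Klf15, chr4:55532426-55532725 (minus strand) for Klf4, chr5:64803271-64803570 (plus strand) for Klf3 and chr7:63938866-63939165 (minus strand) for Klf13.
Klf15: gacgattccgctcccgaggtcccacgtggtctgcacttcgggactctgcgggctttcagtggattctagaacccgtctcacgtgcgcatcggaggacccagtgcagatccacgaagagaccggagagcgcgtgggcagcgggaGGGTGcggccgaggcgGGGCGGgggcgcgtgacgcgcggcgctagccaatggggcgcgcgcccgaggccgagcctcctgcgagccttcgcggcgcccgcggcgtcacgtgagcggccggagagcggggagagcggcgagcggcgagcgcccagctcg
Klf4: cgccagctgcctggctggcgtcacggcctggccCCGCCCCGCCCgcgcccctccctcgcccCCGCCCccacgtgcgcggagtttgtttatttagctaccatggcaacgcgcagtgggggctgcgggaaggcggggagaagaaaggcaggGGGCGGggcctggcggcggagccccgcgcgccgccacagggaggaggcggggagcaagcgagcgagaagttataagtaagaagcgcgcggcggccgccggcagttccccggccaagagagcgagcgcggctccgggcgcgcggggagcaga
Klf3: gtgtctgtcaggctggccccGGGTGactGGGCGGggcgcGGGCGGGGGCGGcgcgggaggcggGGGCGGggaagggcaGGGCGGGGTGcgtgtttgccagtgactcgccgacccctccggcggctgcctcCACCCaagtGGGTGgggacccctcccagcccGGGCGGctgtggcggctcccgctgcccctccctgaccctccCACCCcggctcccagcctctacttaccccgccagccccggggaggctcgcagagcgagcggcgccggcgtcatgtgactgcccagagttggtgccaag
Klf13: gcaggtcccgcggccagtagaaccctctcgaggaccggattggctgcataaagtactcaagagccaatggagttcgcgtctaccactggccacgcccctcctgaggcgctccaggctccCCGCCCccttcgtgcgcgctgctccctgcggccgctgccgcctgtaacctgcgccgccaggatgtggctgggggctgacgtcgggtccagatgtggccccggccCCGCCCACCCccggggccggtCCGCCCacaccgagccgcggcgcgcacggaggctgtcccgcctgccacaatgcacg

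RefSeq promoters were matched for 8 of the 10 members, all except Klf5 and Klf10. A GC box was present in 7 of these 8, against 35.7% of all 32851 promoters searched, and a CACCC box in 6 of 8, against 57.5%. These windows are rich in GC, from 58.3% in Klf7 to 76.7% in Klf3, which makes such matches more likely. Klf3 held 6 GC boxes and 5 CACCC boxes, some of which overlapped each other. Klf4 held 4 GC boxes and no CACCC box, Klf15 had 1 of each, and Klf13 held 3 GC boxes and 1 CACCC box, with an overlap between both kinds. Klf9 had a CACCC box and no GC box. None of the 8 windows held the TATA box TATAAA (13.6% of all promoters), the cyclic AMP response element TGACGTCA (1.79%), a p53 decamer (8.36%) or a CArG box, the element of serum response factor (1.63%). These matches are of letters in a short window and say nothing of binding.

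Most other relatives were weaker or were not compared. Klf16 had 8.05 FPKM in Nutlin-3a and 5.28 in DMSO, a log2 ratio of 0.53, and was the one of 5 further Kruppel-like factors analysed that met the minimum. Klf11, the close relative of Klf10, had 1.35 against 0.346 FPKM, a 3.90-fold higher value under the minimum mean. Klf1, the erythroid factor, and Klf12 had at most 0.155 FPKM, and Klf8 was listed at 0 in DMSO. The related Sp factors, which bind the same GC boxes, went the same way within the limit for Sp3 (9.73 against 7.74 FPKM) and Sp1 (6.24 against 4.29 FPKM), and Sp2 had 1.22 against 1.43 FPKM. Sp4 and Sp6 had 0.223 against 0.119 and 0.213 against 0.00924 FPKM, under the minimum, and Sp5, Sp7 and Sp9 were listed at 0 in DMSO.

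Partners of the family mostly stayed within 2-fold. None of 14 corepressors and coactivators compared passed the limit, and their median log2 ratio was 0.00. Of all genes compared, 6.62% were called higher and 6.14% lower, so most genes of any list would stay within the limit. The deacetylase scaffold gene Sin3b had 277 against 259 FPKM, and Ctbp1, the corepressor that Klf3 recruits, had 74.2 against 120 FPKM. Of 8 ubiquitin ligase genes linked to Kruppel-like factors, 1 was called higher and none lower, with a median of 0.49, and 1 of 8 is near the 6.62% of all genes compared. That gene was Fbxw7, whose product marks KLF5 for degradation in human cells, with 14.6 against 3.99 FPKM, a log2 ratio of 1.64. Smurf1 had 15.6 against 7.95 FPKM and Vhl had 16.3 against 19.9 FPKM, both within the limit. Wwp1, which acts on Klf2 and was singled out after its values were seen, had 2.90 against 1.84 FPKM.

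Adipogenic factors that act with the family did not pass the limit in either direction in any of 16 genes compared, and their median log2 ratio was -0.15. Most of all genes compared also stayed within it, with 6.62% called higher and 6.14% lower. Ddit3, an inhibitor of C/EBP factors, had 285 FPKM in Nutlin-3a and 336 in DMSO. The direct targets of members were singled out after their values were known. Pparg, which Klf2 represses and Klf5 activates, had 11.3 against 16.4 FPKM, and Cebpa, on which Klf3 acts, had 4.03 against 2.43 FPKM. Egr2, the partner of Klf4 on Cebpb, had 2.64 against 2.55 FPKM. Of 7 compared genes on a list of amino acid and glucose metabolism drawn up for Klf15, 1 was called higher and 1 lower, with a median of -0.03. Either count is near the share of all genes compared (6.62% higher and 6.14% lower) and is not read as a result about the list. The one called higher was Acss2, the gene of the cytosolic acetyl-CoA synthetase (3.02 against 0.646 FPKM). Klf15 is known to regulate the gene of the mitochondrial form in muscle and not this one, and without Acss2 no gene of the list was called higher. In the lower direction, Bcat2, a branched-chain aminotransferase gene, had 11.3 against 35.8 FPKM. Oat (35.6 against 35.9 FPKM) and Got1 (20.8 against 36.8 FPKM), both aminotransferase genes, stayed within the limit, and Slc2a4, Tat and Pck1 were listed at 0 in DMSO and below 0.1 FPKM in Nutlin-3a.

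Immediate early genes, the class to which Klf2, Klf4, Klf6 and Klf10 belong in serum-stimulated fibroblasts, included 5 of 17 called higher and none lower (6.62% and 6.14% of all genes compared), with a median log2 ratio of 0.47. The 5 were Btg2 (22.9 against 2.28 FPKM), Fos (7.29 against 1.96 FPKM), Atf3 (2.53 against 0.363 FPKM), Junb (110 against 50.5 FPKM) and Ier5 (33.7 against 15.9 FPKM). Btg2 and Atf3 are also known p53 targets. Ier2 had 77.4 against 69.5 FPKM. Of 15 TGF-beta response genes, the class of Klf10, 3 were called higher and 2 lower, and the median was -0.15. The inhibitory Smad genes Smad7 (14.0 against 3.66 FPKM) and Smad6 (13.4 against 5.33 FPKM) were higher together with Junb, and the matrix genes Tgfbi (20.2 against 68.6 FPKM) and Col1a1 (63.9 against 193 FPKM) were lower. Id1 (578 against 373 FPKM) and Acta2 (188 against 266 FPKM), the strongest members by mean, stayed within the limit.

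**Figure D3:**
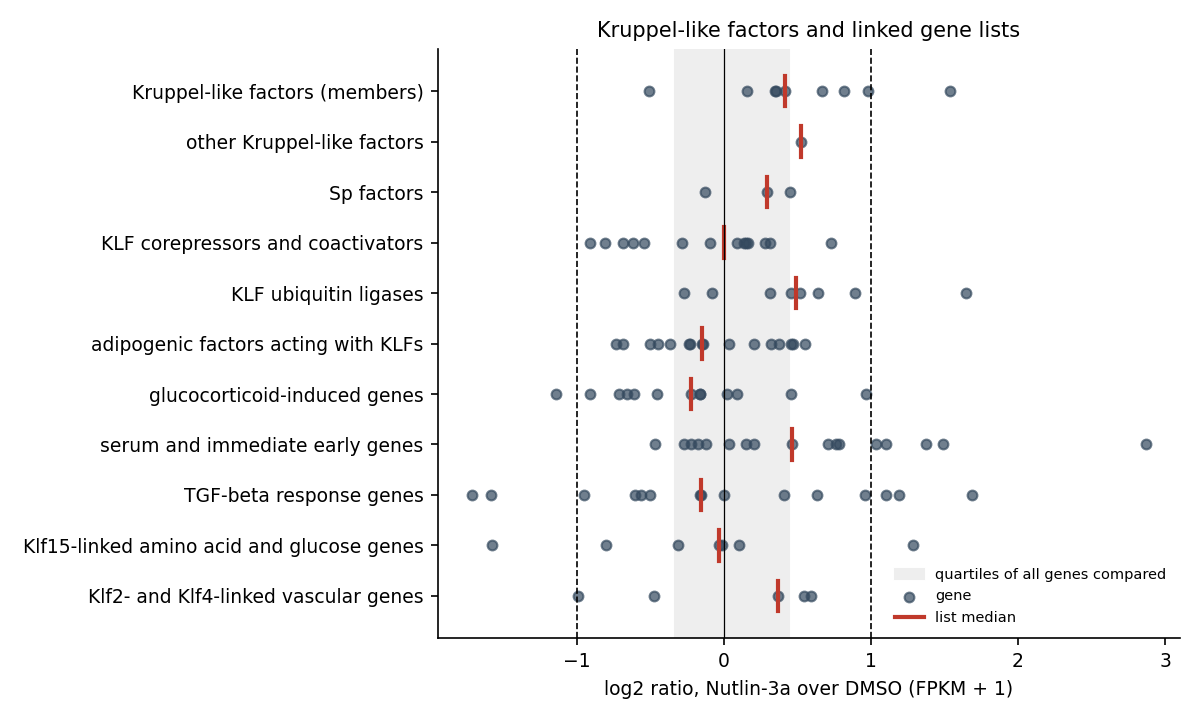
Log2 ratio of Nutlin-3a over DMSO on the log2(FPKM + 1) scale for the Kruppel-like factors and 10 linked gene lists, with 1 point per gene compared, a red bar at each list median, a grey band for the quartiles of all genes compared and dashed lines at the 2-fold limit. The Kruppel-like factor median of 0.41 lies near the upper edge of the band, and immediate early genes hold 5 points past the upper line.

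The reported ratios were recomputed with other pseudocounts, filters, scalings, a correction for GC content and a single transcript per gene. Klf15 stayed past the 2-fold limit under each of these that kept it in the comparison. With no filter on low values, where the filter could not fix its call, Klf15 was at 1.54. Klf4 lay on either side of the limit, and Klf9 was past it only with a pseudocount of 0.1 (1.20). Klf2, Klf3, Klf5, Klf6, Klf10 and Klf13 stayed within it.

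**Figure D4:**
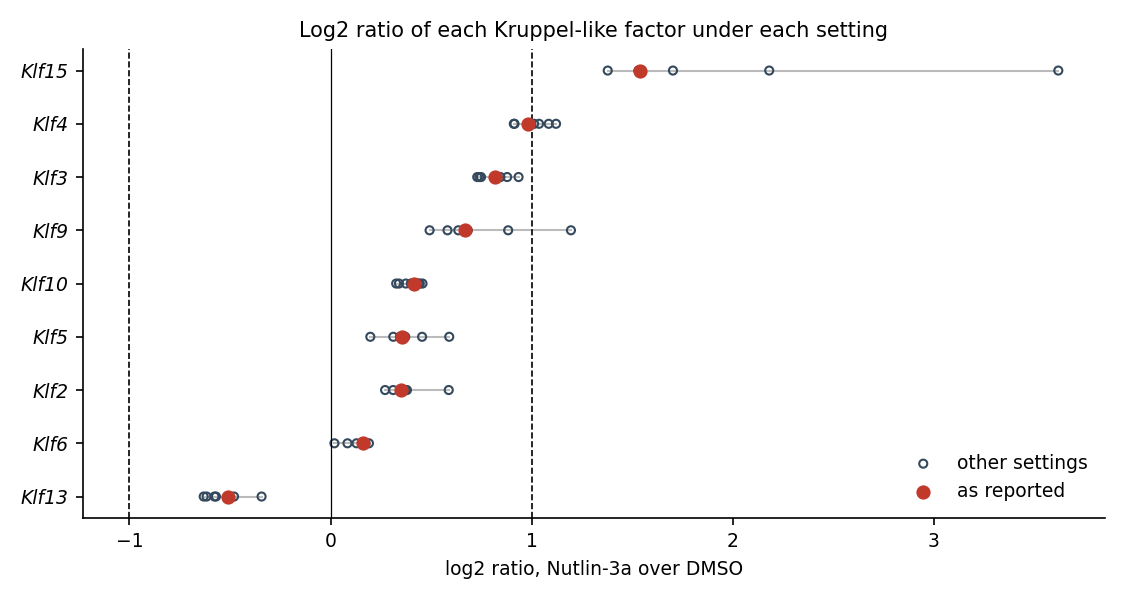
Log2 ratio of Nutlin-3a over DMSO for each of the 9 Kruppel-like factors compared, as reported (red) and under each other pseudocount, filter, scaling, GC correction or choice of transcript (open circles); dashed lines mark the 2-fold limit. Klf15 spans 1.38 to 3.62, Klf4 spans 0.91 to 1.12 around the limit, and Klf13 stays below 0.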

How the data were processed

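Total RNA was extracted with TRIzol and sequenced as Illumina libraries, per the labels' protocols. Per the submitters' processing notes, TopHat2 2.0.11 and mm10 were used. Not given in the sources used here are the quantifier and how replicates were combined. The authors deposited FPKM for 24746 transcripts, 1 value per group. The prefix NUT was taken for Nutlin-3a, and DSM for DMSO because it is the other group. Another pair of deposited columns held log2 of the same FPKM (deviation of at most 0.0071) and was not used. Another 4294 lines were blank. Starts in the table count from 0, and 1 was added to print them.

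FPKM was summed per symbol, and log2 ratios used a pseudocount of 1, with Python 3.11.15 and pandas 2.3.3. The planned limma fit, its replicate block and leaving out replicates need values per library and were not run; a 2-fold limit took their place. Genes needed a mean FPKM of at least 1. GC content and 50-base words came from GENCODE M21 (9935 genes, 96.2%). The call rule was tested on simulated folds without noise, which checks the rule but neither replicate error nor weak genes. Named were all members and relatives and, per list, up to 4 genes past the limit and 2 with the highest mean. Members and lists were chosen with earlier results of these data known. Alternatives changed the pseudocount, filter, scaling and fold limit, corrected for GC content or took the strongest transcript.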

Additional observations from a re-analysis of the deposited data

How the results depend on the processing

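The ratios of the 9 members kept their sign under all alternatives that gave a value. The count of members called higher, 1 as reported, was 3 with a pseudocount of 0.1 (Klf4, Klf9, Klf15), and 2 (Klf4, Klf15) with a pseudocount of 0.5, after upper-quartile scaling and after the correction for GC content. Of all genes compared, 9.66% were called higher with a pseudocount of 0.1, and 8.04%, 7.01% and 7.09% under the other 3. It was 4 with a 1.5-fold limit (Klf3, Klf4, Klf9, Klf15), 0 with a 3-fold limit, and 0 when the minimum mean was 5 FPKM, which left 5 members compared. With these 1.5-fold and 3-fold limits, 17.8% and 1.95% of all genes compared were called higher. Klf15 itself ran from 1.38 after quantile normalization to 3.62 with a pseudocount of 0.1. No member was called lower under any alternative. Over all genes, 684 were called higher and 634 lower as reported. These were 1839 and 1566 with a 1.5-fold limit and 201 and 154 with a 3-fold limit, and the balance turned to 391 and 466 when the minimum mean was 5 FPKM, 603 and 746 with median ratio scaling, and 598 and 714 after quantile normalization. The smaller counts with a 3-fold limit and with a minimum mean of 5 FPKM follow from a stricter limit or fewer genes. Median ratio scaling and quantile normalization kept the limit and compared 10368 and 10331 genes. They moved the median log2 ratio over all genes compared from 0.0712 to -0.0009 and 0.0121. No paired analysis was possible because the table holds 1 value per group, and for the same reason no replicate could be left out. The unknown depth limits most the members near or below 1 FPKM in DMSO, namely Klf5, Klf7, Klf9 and Klf15.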

Other observations

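Glucocorticoid-induced genes, to which Klf9 and Klf15 belong in many tissues, included 9 of 13 with lower and 4 with higher values in Nutlin-3a, whereas 54.8% of all genes compared had higher values. Of the 13, 1 was called lower and none higher, near the 6.14% of all genes called lower, with a list median of -0.22 against 0.41 for the 9 Kruppel-like factors compared. Tsc22d3, also known as GILZ, had 7.72 FPKM in Nutlin-3a and 18.2 in DMSO, and the metallothionein genes Mt1 and Mt2 had 5822 against 7979 and 605 against 1139 FPKM. Fkbp5, a standard glucocorticoid target, had 14.1 against 15.9 FPKM. Per1, a clock gene with a glucocorticoid response element, had 7.80 against 3.50 FPKM, a log2 ratio of 0.97. Fkbp5 and Per1 were named after their values were seen.

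Genes that Klf2 and Klf4 are known to control in blood vessels and lymphocytes also stayed within the limit in all 5 compared, with a median of 0.37. So did most of all genes compared, of which 6.62% were called higher and 6.14% lower. The list was not split by whether Klf2 and Klf4 raise or lower a gene, and its median is not read as a direction. S1pr1, a sphingosine phosphate receptor gene that Klf2 activates in T cells, had 8.55 against 18.0 FPKM, a log2 ratio of -0.99, while Klf2 itself had 15.1 against 11.7 FPKM. Thbd, the thrombomodulin gene, had 9.05 against 6.78 FPKM, and Vcam1 and Nfe2l2 had 38.4 against 53.9 and 50.4 against 33.0 FPKM. Nos3, the endothelial nitric oxide synthase gene, had 0.0146 against 0.0418 FPKM. S1pr1, Thbd and Nos3 were named after their values were seen.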
